A study of Mus musculus with 4 samples.

Results

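The connexins are the protein family that builds gap junctions in vertebrates, and 8 of their genes, Gja1, Gja3, Gja4, Gja5, Gjb2, Gjb5, Gjb6 and Gjc1, were measured in forelimb buds with and without Smarcc1. The 8 genes were picked from the 35689 genes of the expression table by their gene symbols, as part of the connexin family of 20 genes, and the family was selected on the basis of its levels in the knockout and control libraries, since the low Gja3 of the knockouts was already known. All values that compare the 8 genes between the genotypes are therefore a description of these libraries, printed without p-values. All 8 genes passed the filter on low values, which asked for 2 or more libraries at 1 TPM or higher. TPM is a level scaled for transcript length and library total, so levels of different genes can be set beside each other within a library.

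The knockout embryos had the genotype PrxCre/+;Smarcc1c/c and the controls Prx+/+;Smarcc1c/c, so both were homozygous for the conditional Smarcc1 allele and the Cre was present in the knockouts alone. Smarcc1 encodes a core subunit of the BAF chromatin remodelling complex, and the series asks, by its title, whether that complex takes part in repression by GLI factors. The Prx-driven Cre is active in limb mesenchyme, while the ectoderm, the blood vessels and the blood of the bud lie outside its main domain and are still part of each sample. Each of the 4 libraries held both forelimbs of 1 embryo at E11.5, and each genotype had 1 embryo of 40 somites and 1 of 39 somites. The knockouts held 46.2 and 38.4 TPM of Smarcc1 and the controls 112.0 and 119.6 TPM, always with the embryo of 40 somites (replicate 1) before that of 39 (replicate 2). The log2 difference of Smarcc1 was -1.44 ± 0.13 (SE). Each library had 12555 to 12689 genes at 1 TPM or more, and the number of reads behind a value is unknown. The 6 limb mesenchyme markers examined were all present, with a summed level of 571 to 735 TPM, and Tbx5, the forelimb T-box gene, lay between 31.9 and 43.1 TPM. All 4 Y-linked genes examined were at most 0.504 TPM in both embryos of 40 somites and at least 13.5 TPM in both of 39 somites, so that stage and sex cannot be told apart.

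Connexin proteins span the membrane and assemble into rings, and the rings of adjoining cells dock to form channels through which ions and small molecules pass. Each connexin has its own permeability and its own partners, and tissues combine several of them. In the limb bud, Gja1 is the connexin best known from mesenchyme and apical ridge, and human mutations in it cause a syndrome with fused digits. Gjb2, Gjb5 and Gjb6 are known from epithelia such as epidermis, Gja4 and Gja5 from arterial endothelium, Gjc1 from early heart and smooth muscle, and Gja3 chiefly from lens fibres. In bulk tissue, fewer cells of a type and less RNA per cell cannot be told apart.

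Gja3, Gjb2 and Gjb6 lie within 75.5 kb of each other by their starts on chromosome 14, all on the minus strand. Gja3 (ENSMUSG00000048582) spans 57034460 to 57058100 in mm10, Gjb2 (ENSMUSG00000046352) 57098600 to 57104702 and Gjb6 (ENSMUSG00000040055) 57123303 to 57133611. Gja4 (127311421 to 127314039) and Gjb5 (127354809 to 127358181) share a stretch of chromosome 4. Gja1 is on chromosome 10 (56377330 to 56402513), Gja5 on chromosome 3 (96904693 to 97077416) and Gjc1 on chromosome 11 (102799579 to 102819700). In the longest annotated coding transcript the whole coding sequence sits in 1 exon for every gene but Gja5, which has 2 coding exons. The sequences just upstream of the starts of the chromosome 14 trio are shown because these genes lie close together and have unlike values in the libraries: Gja3 was lower in both knockouts than in either control, while Gjb2 and Gjb6 overlapped between the genotypes. That difference between the genes was not tested.

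Gja3, chr14:57058101-57058280, minus strand: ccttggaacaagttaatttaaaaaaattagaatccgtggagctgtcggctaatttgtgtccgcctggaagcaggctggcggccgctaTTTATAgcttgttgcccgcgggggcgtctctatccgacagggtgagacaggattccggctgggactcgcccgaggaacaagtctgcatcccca
Gjb2, chr14:57104703-57104952, minus strand: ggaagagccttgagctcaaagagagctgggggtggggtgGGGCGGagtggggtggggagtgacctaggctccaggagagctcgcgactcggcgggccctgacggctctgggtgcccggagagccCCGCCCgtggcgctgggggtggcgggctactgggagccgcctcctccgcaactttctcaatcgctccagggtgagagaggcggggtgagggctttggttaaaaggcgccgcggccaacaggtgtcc
Gjb6, chr14:57133612-57133861, minus strand: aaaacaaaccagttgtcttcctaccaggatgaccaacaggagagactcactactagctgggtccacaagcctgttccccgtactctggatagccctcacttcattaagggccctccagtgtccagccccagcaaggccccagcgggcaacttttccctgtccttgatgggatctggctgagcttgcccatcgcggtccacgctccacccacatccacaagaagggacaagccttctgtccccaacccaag

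The sequences are RefSeq's for GRCm38.p6, the assembly of mm10, read 5′ to 3′ on the gene's strand, and the table held 7 of the 8 genes, all but Gjc1. Each ends at the annotated start that lies furthest upstream, so that the run is 180 bases for Gja3 and 250 for the others. Capitals mark matches, on either strand, to any of 6 motifs: the TATA box TATAAA, the CCAAT box CCAAT, the GC box GGGCGG, the homeodomain cores TAATTA and TAATTG, and the GLI site GACCACCCA. The Gja3 window holds 1 TATA box match, a motif that 8.37% of 32851 mouse promoters hold in a window of that length and place. The match reads TTTATA, so it lies on the strand opposite to the gene. The Gjb2 window holds 2 GC box matches, a motif found in 32.7% of promoters over 250 bases, and the Gjb6 window holds none of the motifs. The GLI site letters are in none of the windows, against 0.177% of promoters over 180 bases and 0.225% over 250 bases. A match in letters is not a binding site, and 0 matches says only that these letters are not there.

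Gja1 was the most abundant connexin in every library, and Gjc1 came second in every library. Gja1 was measured at 307.9 and 315.7 TPM in knockouts, against 268.9 and 272.6 TPM in controls. The knockouts held 89.2 and 110.1 TPM of Gjc1 and the controls 87.2 and 98.4 TPM. The ranges of these genes overlapped neither each other nor those of the remaining 6 connexins, which formed a lower tier in which each gene's range overlapped that of the next. Gjb2 lay between 13.5 and 33.4 TPM, Gjb6 between 3.61 and 10.7, Gja5 between 3.48 and 6.14, Gja4 between 2.15 and 6.26 and Gjb5 between 1.81 and 2.71 TPM. Gja3 ranked 4 and 3 among the 8 in the controls and 7 in both knockouts. Gja4 moved over as many places, at 8 and 5 in the controls and 6 and 4 in the knockouts, with the genotypes overlapping.

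**Figure D1:**
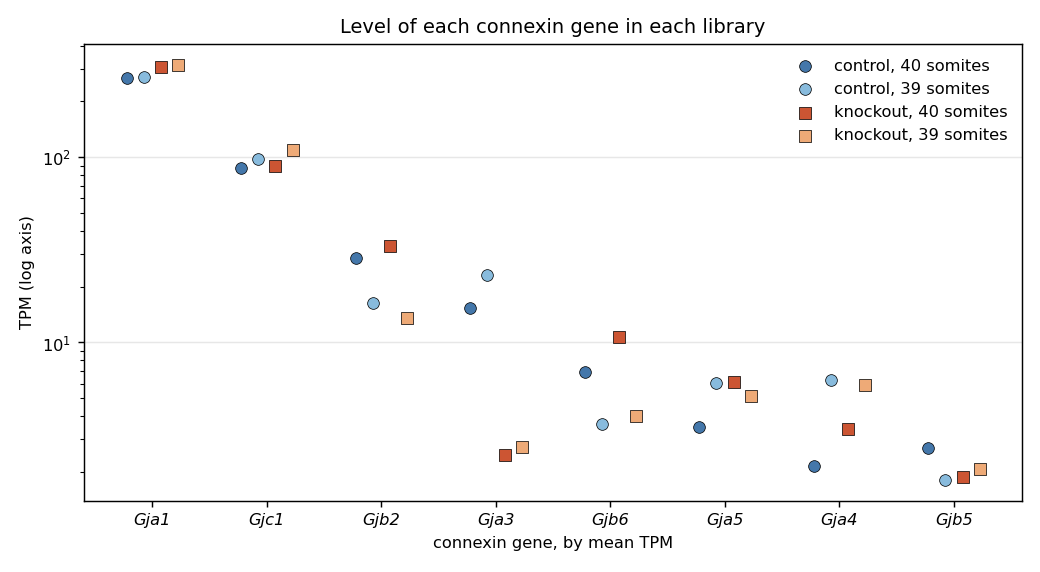
TPM of the 8 connexin genes on a log axis, 1 point per library, circles for controls and squares for knockouts, dark for 40 and light for 39 somites. Gja3 reads 2.48 and 2.72 TPM in knockouts and 15.4 and 23.2 TPM in controls, while the groups overlap in every other gene but Gja1.

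Gja3, the lens-fibre connexin, had the one large difference between the genotypes. It was measured at 2.48 and 2.72 TPM in knockouts, against 15.4 and 23.2 TPM in controls. Both knockout libraries were far below both controls, and the 2 knockouts lay closer together than the 2 controls. The mean was 2.60 ± 0.169 TPM in the knockouts and 19.3 ± 5.50 TPM in the controls (SD, n = 2 each), a ratio of 0.135. On the log2(TPM + 1) scale, which understates differences of low genes, the knockout minus control difference was -2.47 ± 0.21 (SE from a model fitted on all genes). Within a stage, the knockout held 0.161 of the control level at 40 somites and 0.117 at 39 somites.

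Gja1, the main connexin of limb mesenchyme, leaned the other way and by little. Both knockout libraries were above both controls, with means of 311.8 ± 5.53 and 270.8 ± 2.62 TPM (SD, n = 2 each) and a log2 difference of 0.20 ± 0.10 (SE), whose 95% interval ran from -0.05 to 0.45. The knockout level was 1.14 times the control at 40 somites and 1.16 times at 39 somites. The ratio of Gja3 to Gja1 was 0.00806 and 0.00861 in the knockouts and 0.0573 and 0.0851 in the controls. Their ranges are far apart.

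For Gjc1, the other abundant connexin, the groups overlapped and the log2 difference was 0.10 ± 0.14 (SE), with a 95% interval from -0.24 to 0.44. The remaining 5 genes had log2 differences of 0.21 ± 0.41 for Gja4, 0.24 ± 0.24 for Gja5, -0.02 ± 0.43 for Gjb2, -0.11 ± 0.19 for Gjb5 and 0.34 ± 0.44 for Gjb6 (SE, n = 2 per genotype). The 95% interval was wide for Gjb2 (-1.07 to 1.02), so that a 2-fold change either way lies within it, and for Gjb6 (-0.72 to 1.40). With somite stage in the model the intervals were -0.37 to 0.32 for Gjb2, -0.04 to 0.73 for Gjb6, -0.24 to 0.66 for Gja4, -0.09 to 0.28 for Gjc1 and 0.03 to 0.38 for Gja1, all narrower, while that of Gja5 (-0.35 to 0.82) was about as wide, at -0.35 to 0.83.

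In the fit across all 12809 tested genes (limma, Benjamini-Hochberg adjustment at 0.05), 1 of the 8 connexins, Gja3, was called lower, 0 were called higher and 7 were not called. Over all tested genes 1.30% were called, and 0.492% were called lower. Before adjustment (limma, p under 0.05) the count of connexins was again 1, beside 13.7% of all tested genes. Since the family was chosen with this contrast in view, nothing is read from its share of calls. The groups did not overlap in 2 of the 8 genes (25.0%), Gja1 and Gja3, against 43.9% of all tested genes. The median log2 difference of the 8 was 0.15, beside 0.01 for all tested genes. With no filter on low values Gja3 was not called, nor was any other gene. When knockout replicate 2, of 39 somites, was left out, Gjb6 was called higher at 0.96 on the log2 scale. That fit set 1 knockout of 40 somites against controls of both stages, with its spread assumed to be that of the controls, and Gjb6 was higher at 40 somites in both genotypes.

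**Figure D2:**
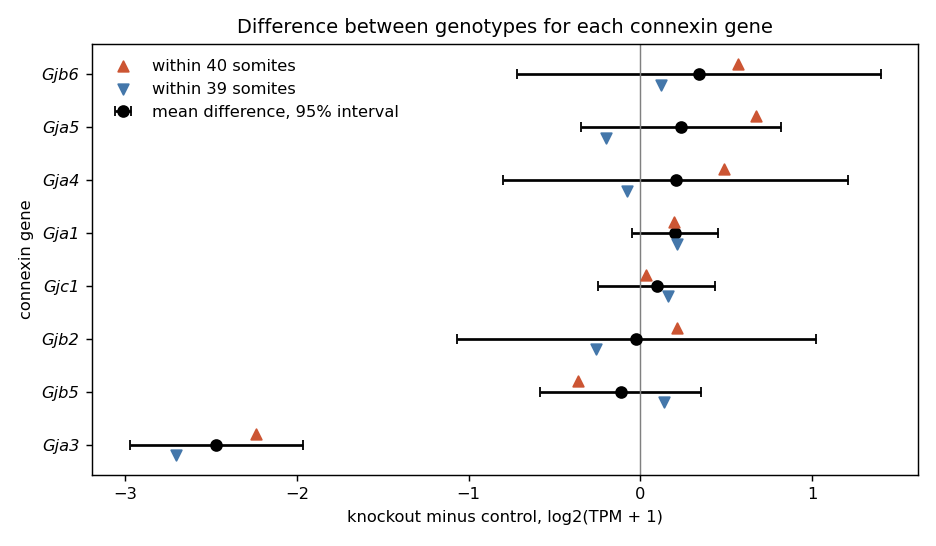
Knockout minus control difference of each connexin on the log2(TPM + 1) scale, as the mean with its 95% interval (circles) and as the difference between the 2 embryos of 40 somites (upward triangles) and of 39 somites (downward triangles). Gja3 lies at -2.47 with both stages below -2, and the intervals of the other 7 genes include 0.

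The total of the 8 connexins was somewhat higher in the knockouts, though not without Gja1, and Gja3 made up a smaller part of it. The summed TPM of the 8 genes was 455.1 and 459.2 in the knockouts and 415.4 and 428.3 in the controls. The groups did not overlap in this sum, as in 43.9% of all single genes tested. Gja1 made up 67.7% and 68.8% of it in the knockouts and 64.7% and 63.7% in the controls. Gja3 made up 0.545% and 0.592% in the knockouts and 3.71% and 5.42% in the controls. The groups overlapped in neither of these shares. Both are parts of one total, so a smaller share of Gja3 by itself makes that of Gja1 larger. No exact test is given because 2 against 2 libraries cannot reach a two-sided p below 0.33. The share of Gjc1 was 19.6% and 24.0% in the knockouts and 21.0% and 23.0% in the controls, which overlapped. With Gja1 left out of the total, Gja3 went from 10.5% and 14.9% in the controls to 1.69% and 1.9% in the knockouts.

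**Figure D3:**
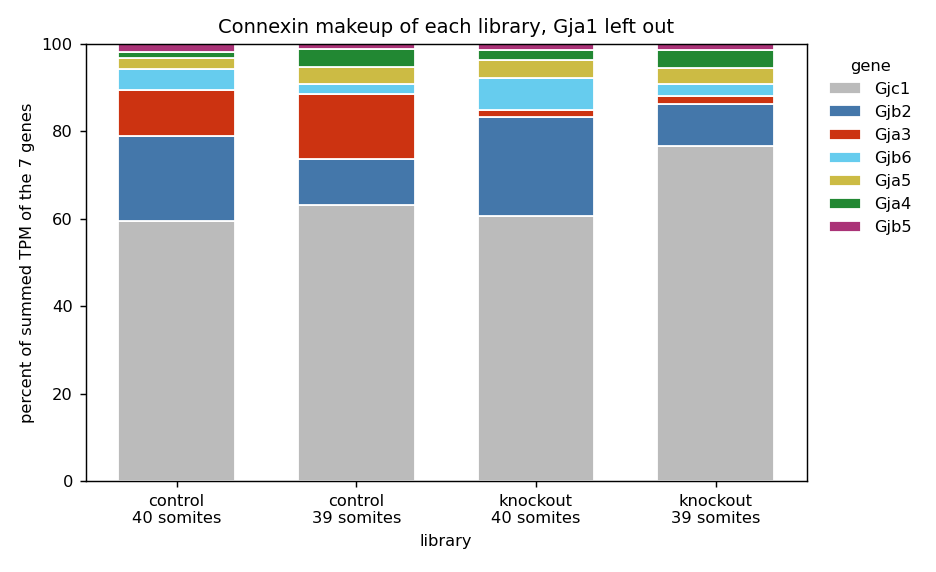
Stacked bars of each library's connexin makeup, in percent of the summed TPM of the 7 connexins other than Gja1, which would fill over 60% of each bar. The Gja3 segment measures 10.5% and 14.9% in the controls and 1.69% and 1.9% in the knockouts, and the Gjb2 and Gjb6 segments are larger at 40 than at 39 somites in both genotypes.

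Gja3 was then set against the summed markers of mesenchyme and of the apical ridge, the epithelial rim at the tip of the bud. Both sums differed between the genotypes by far less than Gja3 did. The quotients therefore restate the low Gja3 for which the family was chosen and are no separate result. Per 100 TPM of the summed mesenchyme markers, Gja3 had 0.434 and 0.407 TPM in knockouts and 2.50 and 3.16 TPM in controls. Per 100 TPM of the summed apical ridge markers it had 1.15 and 1.49 TPM in knockouts and 5.11 and 7.98 TPM in controls. Much of that ridge sum was Bmp4, at 104.1 and 95.4 TPM in knockouts and 98.9 and 122.0 TPM in controls, which overlapped. The ridge list itself was lower in the knockouts, at 215 and 183 against 302 and 291 TPM in sum. Of its 9 tested genes 2, Fgf8 and Sp6, were called lower, 0 were called higher and all 9 lay below 0 (median -0.33). With somite stage in the model the ridge gene Dlx3 was also called lower (limma, Benjamini-Hochberg adjusted p = 0.0404). Of the 6 mesenchyme markers 0 were called, and with stage in the model 2 were, Prrx1 lower (-0.53, limma adjusted p = 0.0293) and Lmx1b higher (0.76, adjusted p = 0.0177). None of the 9 ridge or 6 mesenchyme markers was at 0. The part of these cells in the Gja3 difference was not tested, and which cells held the transcript cannot be read from whole buds. Gja1 had 53.9 and 47.2 TPM per 100 TPM of mesenchyme markers in knockouts and 43.5 and 37.1 TPM in controls, and Gjc1 15.6 and 16.5 TPM in knockouts and 14.1 and 13.4 TPM in controls. These ratios did not overlap between the genotypes, but the divisor was itself lower in the knockout within each stage (571 against 618 TPM at 40 somites, 669 against 735 TPM at 39), and Gjc1 overlapped in TPM. Prrx1, a mesenchymal homeobox gene in that sum, had 129.9 and 139.8 TPM in knockouts and 188 and 201 TPM in controls. Twist1, in the same sum, went the other way, at 163.0 and 197.8 TPM in knockouts and 129.0 and 150.9 TPM in controls. Of the 6 mesenchyme markers 4 had a log2 difference below 0, so the list was split.

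Ifitm1, Lhx2, Msx1 and Mogat2 were among the genes whose profile over the 4 libraries lay closest to that of Gja3. Closeness was the root-mean-square distance between profiles of log2(TPM + 1), each centred on its own mean, among 9436 named protein-coding genes with a mean of at least 5 TPM. The distance was 0.198 for Ifitm1, an interferon-induced membrane protein gene, and 0.258 for Lhx2, a LIM homeobox gene of distal mesenchyme. It was 0.366 for the homeobox gene Msx1 and 0.401 for Mogat2, which encodes an acyltransferase. The knockouts held 9.49 and 8.99 TPM of Ifitm1 and the controls 38.5 and 49.3 TPM. Lhx2 was read at 8.26 and 10.6 TPM in knockouts and 32.4 and 49.2 TPM in controls, and Msx1 at 27.0 and 27.8 TPM in knockouts and 81.5 and 108.9 TPM in controls. These genes were picked for their likeness to Gja3, so the pattern they share with it is no separate result. In them, as in Gja3, both knockouts were below both controls and the control of 39 somites was the highest library. Around Gja1, whose own level differed less between libraries, the distances were smaller. They were 0.0109 to 0.0130 for Ppic, Stoml1, Stk38, Dnajb4 and Dynlt1f.

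The tested neighbours of Gja3 on chromosome 14 had differences nearer to 0. Gjb2, whose start lies 46.6 kb from that of Gja3, had a log2 difference of -0.02 ± 0.43 and Gjb6, 75.5 kb away, one of 0.34 ± 0.44. On the other side Zmym2, a zinc finger gene whose start is 171 kb away, stood at 108.8 and 112.1 TPM in knockouts and 130.1 and 107.0 TPM in controls, with a log2 difference of -0.09 ± 0.13 (SE; limma, Benjamini-Hochberg adjusted p = 0.826). Of the 33 protein-coding genes other than the 8 whose starts lie within 250 kb of a connexin start, 20 were tested. After Benjamini-Hochberg adjustment limma called 0 higher and 0 lower, beside 1.30% called of all tested genes. Beside 13.7% of all tested genes, 1 neighbour had an unadjusted limma p under 0.05. That gene was Pias3 near Gja5, named after its value was seen, at 30.9 and 33.2 TPM in knockouts and 20.8 and 23.2 TPM in controls. Its log2 difference was 0.52 ± 0.12 (SE; limma, Benjamini-Hochberg adjusted p = 0.127), and it was called with somite stage in the model (adjusted p = 0.0385).

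**Figure D4:**
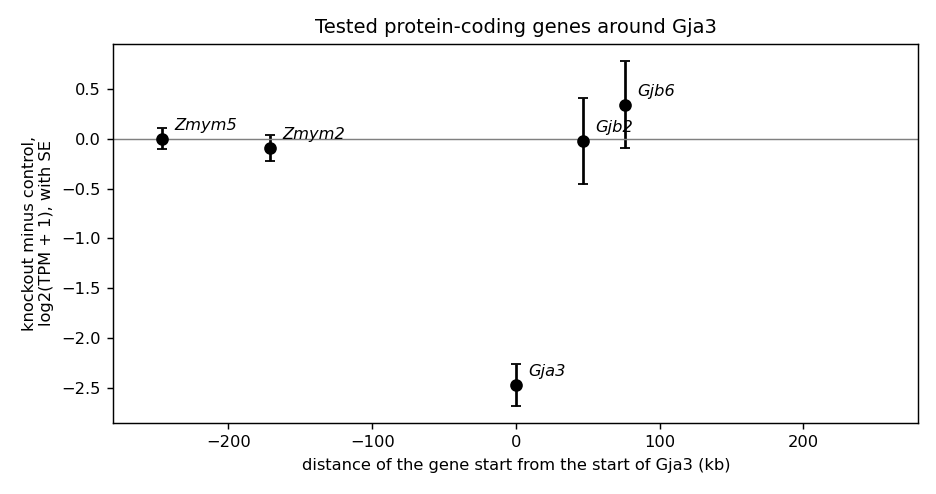
Knockout minus control difference on the log2(TPM + 1) scale, with its SE (n = 2 per genotype), for Gja3 and the tested protein-coding genes within 250 kb, plotted by the distance of their starts from that of Gja3. Gja3 lies at -2.47, and the 2 connexins on its right and the 2 zinc finger genes on its left lie between -0.09 and 0.34.

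Gjb2 and Gjb6, connexins of the epidermis and inner ear, were higher in the embryo of 40 somites than in that of 39 in both genotypes, and the genotypes overlapped. Gjb2 was measured at 33.4 and 13.5 TPM in knockouts of 40 and 39 somites, against 28.7 and 16.4 TPM in controls. Gjb6 was measured at 10.7 and 4.0 TPM in knockouts, against 6.91 and 3.61 TPM in controls. The level at 40 somites was 2.46 and 1.75 times that at 39 somites for Gjb2 and 2.68 and 1.91 times for Gjb6 (knockout, control). With genotype and stage in one model, a fit chosen after these values were seen, the 40 minus 39 difference was 1.0 ± 0.13 for Gjb2 and 1.0 ± 0.15 for Gjb6 on the log2 scale (SE). Neither passed over all genes (limma, Benjamini-Hochberg adjusted p = 0.133 and 0.158), and across 8 alternatives the adjusted p ran from 0.0995 to 0.369 for Gjb2 and from 0.116 to 0.369 for Gjb6. Of all tested genes 0.164% were called by stage, and 0 of the 8 connexins were. At an unadjusted p under 0.05, 4 connexins were past it for stage in limma (Gja4, Gjb2, Gjb6 and Gjc1), as were 2767 of the 12809 genes (21.6%). Gjc1 was lower at 40 somites in both genotypes, by -0.24 ± 0.07 on the log2 scale (SE; limma, Benjamini-Hochberg adjusted p = 0.184).

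Of 12 surface ectoderm markers, 11 were likewise higher at 40 than at 39 somites in both genotypes, all but Krt8, and none was at 0. None of them passed for stage (lowest limma adjusted p = 0.101, for Krt5). The share of TPM in mitochondrial genes split the same way, at 10.1% and 9.91% at 40 somites and 7.58% and 8.05% at 39 (knockout, control), and the median stage difference of all tested genes was -0.10 on the log2 scale. The part of these in the stage differences was not tested. Their sum was 499 and 315 TPM in knockouts and 637 and 417 TPM in controls. Krt14, a keratin of basal epidermis, stood at 45.4 and 19.0 TPM in knockouts and 41.5 and 23.7 TPM in controls, which is the same order as Gjb2. No other ectoderm marker had that order. In all the others the control of 40 somites was the highest library, as in Krt5, at 154.3 and 90.1 TPM in knockouts and 159.5 and 102.2 TPM in controls. Per 100 TPM of ectoderm markers, Gjb2 had 6.69 and 4.30 TPM in knockouts and 4.50 and 3.93 TPM in controls, so the stage gap was smaller than in TPM but still there, and the groups overlapped. Gjb6 had 2.15 and 1.27 TPM per 100 in the knockouts and 1.09 and 0.865 TPM per 100 in the controls, with no overlap. The ratio of Gjb2 to Gjb6 was 3.11 and 3.38 in the knockouts and 4.15 and 4.55 in the controls, again with no overlap. Of all single genes tested, 43.9% did not overlap either, and Gjb2 and Gjb6 each overlapped in TPM, so nothing is read from these ratios. All 12 ectoderm markers lay below 0 between the genotypes (median log2 difference -0.42), so the divisor was itself lower in the knockouts within each stage. None of the 12 was called, and with somite stage in the model 3 were called lower (limma, Benjamini-Hochberg adjusted p = 0.0230 for Cldn6, 0.0251 for Perp and 0.0496 for Grhl3). Their part in these ratios was not tested.

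Gjb5, an epidermal and trophoblast connexin, was low throughout, at 1.88 and 2.09 TPM in knockouts and 2.71 and 1.81 TPM in controls, with no common order by stage or genotype. Per 100 TPM of ectoderm markers it had 0.378 and 0.663 TPM in knockouts and 0.426 and 0.433 TPM in controls. In these values too the genotypes overlapped.

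Gja4 and Gja5, connexins of the arterial wall, were both lowest in the control of 40 somites. Gja4 was measured at 3.43 and 5.89 TPM in knockouts, against 2.15 and 6.26 TPM in controls, and in both genotypes the embryo of 40 somites was the lower, at 0.582 and 0.344 of the level at 39 somites (knockout, control). Its 40 minus 39 difference was -0.92 ± 0.17 on the log2 scale (SE; limma, Benjamini-Hochberg adjusted p = 0.160). The knockouts held 6.14 and 5.11 TPM of Gja5 and the controls 3.48 and 6.03 TPM, with no common order by stage. All 10 endothelial markers were lower at 40 somites in both genotypes, with sums of 102 and 141 TPM in knockouts and 83.0 and 145 TPM in controls, and none was at 0. None of them passed for stage (lowest limma adjusted p = 0.125). Of 5 tested arterial markers, 3 were lower at 40 somites in both genotypes, while Hey1 and Unc5b were higher at 40 somites in the knockouts. The arterial sum was 106 and 104 TPM in knockouts and 86.8 and 117 TPM in controls. Within each genotype that is the same order of libraries as for Gja5. Of the tested markers in the knockouts, only Hey1 (52.6 and 47.6 TPM) and Unc5b (22.3 and 19.5 TPM) had that order. Sox17 (1.89 and 2.23 TPM), Efnb2 (27.7 and 31.4 TPM) and Dll4 (1.62 and 2.82 TPM) had the reverse. Per 100 TPM of the endothelial markers, Gja4 had 3.36 and 4.18 TPM in knockouts and 2.59 and 4.33 TPM in controls. Gja5 had 6.03 and 3.63 TPM per 100 in the knockouts and 4.19 and 4.17 TPM per 100 in the controls. Set against these markers, the genotypes overlapped in both genes, and the part of vessel content in their levels was not tested.

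**Figure D5:**
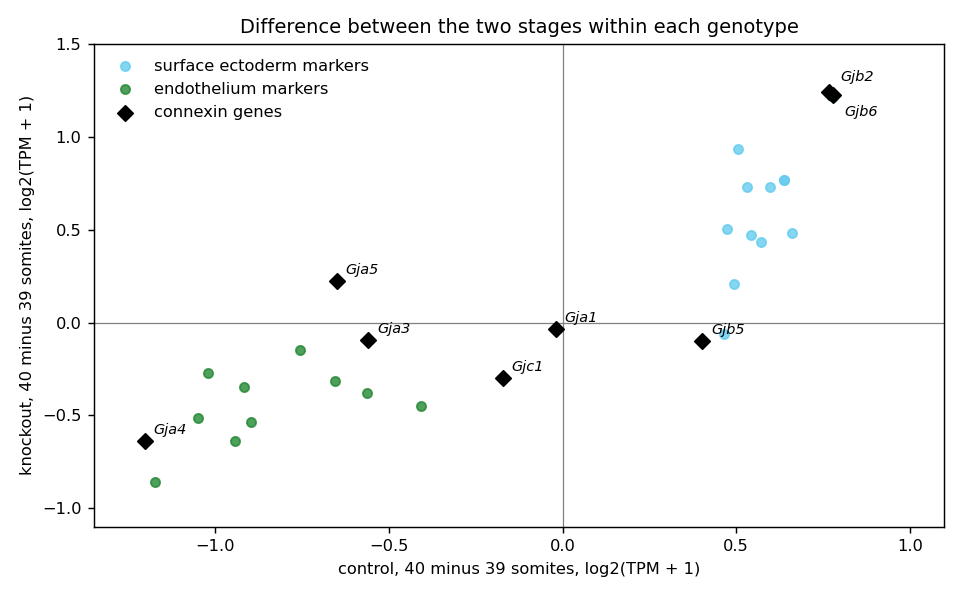
Difference between the embryos of 40 and 39 somites on the log2(TPM + 1) scale, controls on the horizontal and knockouts on the vertical axis, for the 8 connexins (diamonds), 12 surface ectoderm markers and 10 endothelial markers (dots). Gjb2 and Gjb6 lie at the upper right beyond the ectoderm markers other than Krt14, whose dot is hidden beneath theirs. At the lower left, Gja4 lies beside the endothelial markers, slightly further left than any of them. All 10 endothelial markers are below 0 on both axes.

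The rest of the gap junction machinery showed no call in the main fit, where 1.30% of all tested genes were called. With so few genes tested, 0 calls says little. A further 11 connexins were at most 0.279 TPM in every library and were not tested, Gjd2 and Gje1 being listed at 0 in all of them. Of the pannexins, a separate family of channel proteins, Panx1 was tested. It was measured at 19.8 and 28.0 TPM in knockouts, against 31.4 and 39.3 TPM in controls, both knockouts being below both controls. Its log2 difference was -0.56 ± 0.19 (SE; limma, Benjamini-Hochberg adjusted p = 0.286), and it was called lower with somite stage in the model (adjusted p = 0.0397). It was also called lower without knockout replicate 2 (adjusted p = 0.0116), a fit of 1 knockout of 40 somites against controls of both stages, and Panx1 was lower at 40 somites in both genotypes. Of 22 genes for partners of connexins, which anchor, transport, phosphorylate or degrade them, 20 were tested, with 0 called in either direction. Their median log2 difference was -0.07. Limma's unadjusted p was under 0.05 for 1 of them (higher), beside 13.7% of all tested genes. The partners with the smallest p were Cav1, which encodes the caveolar protein caveolin, at 12.0 and 11.6 against 7.81 and 9.52 TPM, the kinase gene Src at 29.1 and 26.4 against 32.4 and 35.5 TPM, and the cadherin gene Cdh2 at 48.0 and 54.6 against 40.7 and 44.8 TPM. In each of these 3 the knockouts did not overlap the controls, as in 43.9% of all tested genes. Tjp1, which encodes a scaffold that binds the tail of the Gja1 protein, overlapped at 31.7 and 38.6 against 30.9 and 36.9 TPM and is named here, after its values were seen, as the best-known partner.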

How the data were processed

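RNA was sequenced from whole forelimb pairs on a DNBseq instrument, and the authors deposited 1 table of TPM values for 35727 Ensembl genes. Salmon 1.9.0 and mm10 were used, per the submitters' processing notes. The transcript set is not given in the sources used here. TPM keeps no depth, so precision rests on 2 embryos per genotype. A reference table of gene names gave symbols for 99.1% of the identifiers, repeated symbols were summed, and positions came from GENCODE M21 (mm10). Genes at 1 TPM or more in 2 or more libraries entered a limma fit (version 3.58.1, R 4.3.3, mean-variance trend) on log2(TPM + 1), with Benjamini-Hochberg adjustment over 12809 genes at 0.05. The function was tested on simulated data. The 8 genes and all lists were chosen with earlier results of these data known. Named genes are the 8, Smarcc1, genes of the fixed lists past the threshold or else the 3 with the smallest p, neighbours past the threshold or nearest to Gja3, and the 5 closest profiles to Gja3 and to Gja1, others being named after their values were seen. Some genes that this rule selects are not reported here. Somite stage pairs embryos of the genotypes. Across 12809 genes, which are not independent replicates, the deviations of same-stage embryos from their genotype means had a Pearson correlation of 0.250. Alternatives changed the pseudocount, filter, scaling, variance model and threshold, added stage, or left out a library.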

Additional observations from a re-analysis of the deposited data

Results flagged for a closer look

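In 4 of the 8 connexins the knockout minus control difference had opposite signs in the embryos of 40 and of 39 somites, with 1 library of each genotype at each stage. The gap between the stages, 40 minus 39, was 0.57 on the log2 scale for Gja4 (0.49 and -0.08), 0.88 for Gja5 (0.67 and -0.20), 0.47 for Gjb2 (0.21 and -0.26) and -0.50 for Gjb5 (-0.36 and 0.14). These differences between stages were not tested, since no residual spread is left with 1 library per cell of the design.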

How the results depend on the processing

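Both knockouts lay far below both controls in Gja3, so the sign of its difference was all but fixed beforehand. The log2 difference of Gja3 kept its sign in all 13 alternatives, from -2.82 with a pseudocount of 0.1 to -1.66 with a pseudocount of 5. It lost its call with no filter on low values (log2 difference -2.47), where limma called 0 of 20946 genes, so the count of connexins called lower was 0 there and 1 elsewhere. Connexins called higher numbered 0, or 0 to 1 with a library left out, the 1 being Gjb6 without knockout replicate 2. With somite stage as a block 533 genes were called in place of 167, Gja3 stayed the single connexin called, 1 other gap junction gene (Panx1) was called lower in place of 0, and 1 neighbouring gene (Pias3) was called higher in place of 0. Without knockout replicate 1 or 2 the count of other gap junction genes called lower was 1 (Cdh1 and Panx1), and it ranged from 0 to 1 over the libraries left out. Leaving out a library unbalanced the stages and left 1 library in a genotype, assumed to vary like the other 2, and the log2 difference then turned sign in 6 connexins. Gja4 ran from -0.39 (without control replicate 1; -0.11 without knockout replicate 2) to 0.81, and Gja5 from -0.089 (without control replicate 1) to 0.56. Gjb2 ran from -0.64 to 0.60 (without knockout replicate 2; 0.36 without control replicate 1), and Gjb5 from -0.31 to 0.087 (without control replicate 1). Gjb6 ran from -0.27 (without knockout replicate 1; -0.05 without control replicate 2) to 0.96, and Gjc1 from -0.054 (without knockout replicate 2) to 0.25. Gja1 stayed between 0.18 and 0.22 in those fits. Over all genes 275 were called with robust variance estimation, and 50 to 646 with a library left out. The mean share of Gja3 was 1.79% in the knockouts and 12.7% in the controls with Gja1 out of the total, and that of Gja1 was 66.8% and 62.2% with all connexins as the total. Scaling moved the median of all genes by less than 0.1. Precision is limited by 2 embryos per genotype and an unknown depth.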
